A study of Mus musculus with 6 samples.

Results

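Malat1 and Neat1 are the long non-coding RNAs of 2 neighbouring genes on mouse chromosome 19, and the values given here are their reads in exosomes, the small vesicles that cells release into the medium. Every row of the deposited ncRNA count table whose transcript belongs to Malat1 or Neat1 in the GENCODE annotation, release M21, was taken, which gave 8 transcripts among the 5880 listed, from 2 of 4554 annotated genes. They held 2540 of 4158200 counts over 6 libraries, 2512 at the 4 Malat1 transcripts and 28 at the 4 Neat1 transcripts. Of the 8 transcripts, 5 passed the filter of at least 15 counts over the 6 libraries, all 4 of Malat1 and 1 of Neat1, and 3 Neat1 transcripts did not.

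Malat1 RNA is a nuclear transcript of nearly all mammalian cells and is among the most abundant lncRNAs there. It gathers in nuclear speckles, the bodies that store splicing factors, and in neurons it has been linked to genes of synapse formation. Its end is made not by the usual polyadenylation but by RNase P, which cuts off a small tRNA-like RNA and leaves a stable triple helix. Neat1 RNA builds another nuclear body, the paraspeckle. Its short form is polyadenylated, and its long form, processed by RNase P as Malat1 is, forms the scaffold of that body.

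UD-P19 libraries (replicates 1, 2 and 3) came from exosomes of undifferentiated P19 cells, a mouse embryonal teratocarcinoma line, kept for 24 h in alpha-MEM with N2 supplement after growth in serum. P19N libraries came from exosomes of neurons made from the same line by retinoic acid over 4 days and cultured in neurobasal medium with B27 and N2 supplements until they were 8, 10 or 12 days old (replicates 4, 5 and 6). The P19N cultures were also exposed to 5-fluorouridine and uridine against dividing cells, on day 3 and again on day 8 after medium had been taken, and the labels name no drug. The question was which ncRNAs differ between the exosomes of both cell states. Both groups come from 1 cell line, culture age and replicate cannot be told apart in P19N, and p-values measure only the spread between these libraries. The study describes the 6 exosome preparations as independent, and its methods have medium taken on day 8 and every other day after it. Whether the 3 ages shared flasks is not given in the sources used here. Medium, cell state and collection scheme also differ together between the groups and cannot be told apart. Exosomal RNA is not cellular RNA, and more vesicles with the transcript and more transcript per vesicle cannot be told apart.

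The libraries held between 454499 and 887460 counts each, and no pair of libraries of a group agreed within counting noise. U-type snRNAs took between 4.76% and 7.38% of all counts in UD-P19 libraries and between 48.2% and 52.8% of those of P19N libraries, and a single lincRNA, Gm42418, took between 49.1% and 65.9% and between 16.3% and 18.2%. UD-P19 replicate 2 stood apart from the other UD-P19 libraries, with 847 of 2107 lincRNA transcripts detected against 368 and 461. Of a list of pluripotent cell markers, 7 of 15 were listed, and their summed level was between 19.7 and 57.2 counts per 1000000 deposited counts in UD-P19 libraries and between 5.26 and 15.3 in P19N libraries. Most of these UD-P19 counts were of 1 marker, Mir17hg, with 23, 19 and 15 of 26, 32 and 15 counts in replicates 1, 2 and 3. It was the only tested marker of that list. Of the neuron markers 11 of 13 were listed, at between 24.2 and 257 counts per 1000000 deposited counts in UD-P19 and between 139 and 183 in P19N libraries. The 257 was in UD-P19 replicate 2. None of the glia markers or of the mesoderm and endoderm markers was listed.

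The shorter listed transcripts of a gene share most of their sequence with its long form, and this sets what can be read from each. Malat1-201 (ENSMUST00000172812.2) is the full-length form, 1 exon of 6983 bases on the minus strand at chr19:5795690-5802672 (GRCm38). The annotated Malat1-202, Malat1-203 and Malat1-204 are spliced forms of 556, 485 and 656 bases, each with 2 exons that lie within Malat1-201. Malat1-203 covers the 5′ end of the gene, at chr19:5802238-5802671 and chr19:5801916-5801966. Malat1-202 and Malat1-204 cover parts near the 3′ end, with first exons at chr19:5797004-5797464 and chr19:5796389-5796952 and a second exon up to position 5795785 that they share. A read of 20 bases can name a spliced form only when it crosses the junction of its exons, so the junctions are shown. The first exon is in lower case and the second exon in capitals, 30 bases each, read 5′ to 3′ from the GENCODE transcripts.
Malat1-202: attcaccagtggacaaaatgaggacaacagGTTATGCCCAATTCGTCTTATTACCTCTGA
Malat1-204: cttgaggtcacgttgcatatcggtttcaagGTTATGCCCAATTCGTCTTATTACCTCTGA
Malat1-203: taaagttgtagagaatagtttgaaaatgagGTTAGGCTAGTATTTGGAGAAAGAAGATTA

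Malat1-202 and Malat1-204 join different first exons to the same second exon. Of the 537 windows of 20 bases in Malat1-202 only 14 are absent from Malat1-201, and the numbers are 15 of 466 for Malat1-203 and 15 of 637 for Malat1-204. Seen from Malat1-201, 5378 of its bases are in no other listed Malat1 transcript and 1605 are shared with at least 1 spliced form.

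Neat1-201 is the long form, 1 exon of 20771 bases at chr19:5824708-5845478 on the minus strand. Neat1-202, annotated with 2 exons and 3004 bases, and Neat1-203 lie in its 5′ part, and Neat1-204 lies near its 3′ end. Of the 2985 windows of 20 bases in Neat1-202 only 18 are absent from Neat1-201. Reads of a short form would thus mostly match Neat1-201 too. The last 60 bases of Malat1-201, Neat1-202 and Neat1-201 are shown as annotated, and whether a processed RNA ends there is not given by the counts. The letters AATAAA, the usual polyadenylation signal, are in capitals where they occur.
Malat1-201: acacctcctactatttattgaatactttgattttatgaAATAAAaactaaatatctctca
Neat1-202: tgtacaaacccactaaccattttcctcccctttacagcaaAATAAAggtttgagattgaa
Neat1-201: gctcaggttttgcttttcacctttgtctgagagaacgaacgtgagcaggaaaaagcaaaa

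AATAAA was searched on the transcript's own strand only and no other motif was searched. It was found in Malat1-201 and Neat1-202 and not in the last 60 bases of Neat1-201, and it was present in the last 60 bases of 24.9% of 5765 transcripts of the table and of 35.5% of 2107 lincRNA transcripts. The table gives 1 count per transcript and no position along it, so the counts say nothing about reads at these ends. The small tRNA-like RNAs cut from both genes have no row of their own among the listed genes within 100 kb and were not analysed here. Whether their reads are among the counts of Malat1-201 and Neat1-201 cannot be told, so these counts may not be of the long RNAs alone.

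**Figure D1:**
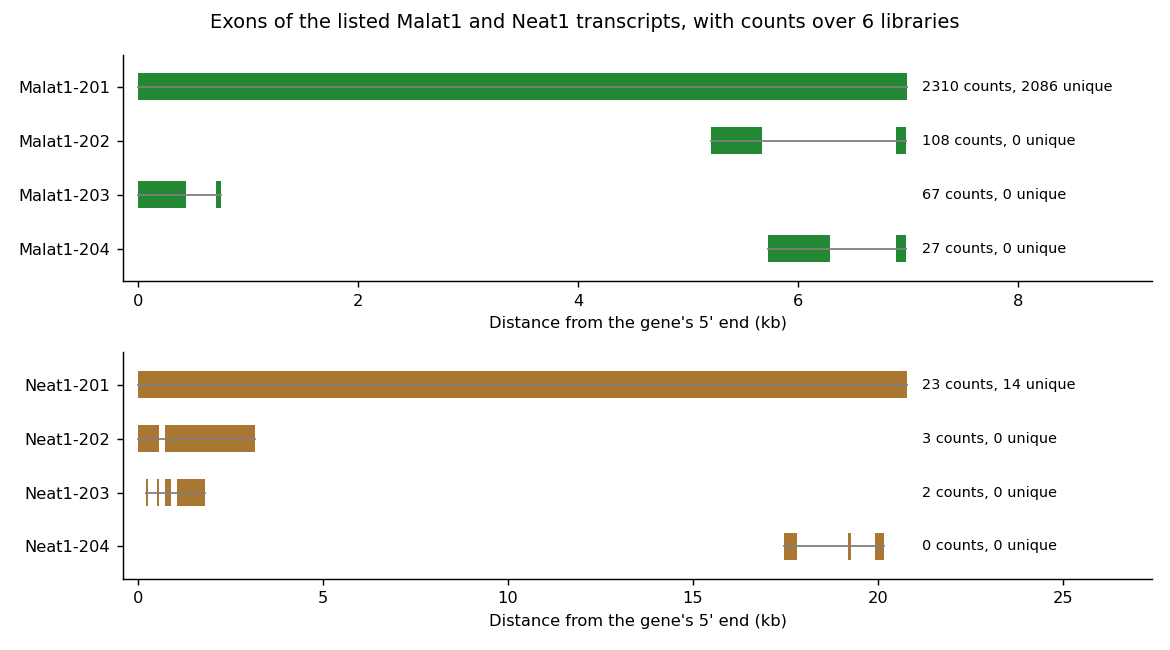
Exons (blocks) and introns (lines) of the 8 listed transcripts against the distance from the 5′ end of each gene in kb, with the deposited counts and unique counts summed over 6 libraries beside each. Malat1-201 and Neat1-201 span their genes and hold 2086 and 14 unique counts, and each of the other 6 transcripts holds 0.

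Malat1-201 had more reads in P19N exosomes than in UD-P19 exosomes. It had 94, 241 and 132 counts in UD-P19 replicates 1, 2 and 3 and 843, 687 and 313 counts in P19N replicates 4, 5 and 6. As CPM (counts per 1000000, with library sizes scaled by the TMM method of edgeR) these were 230.2, 285 and 218 in UD-P19 and 991, 906 and 436 in P19N libraries. Each P19N library was above each UD-P19 library, and P19N replicate 6 lay well below the other P19N libraries. The means were 244 ± 35.6 CPM (SD, n = 3) in UD-P19 and 778 ± 299 CPM (SD, n = 3) in P19N exosomes. In edgeR's quasi-likelihood fit over all 1286 tested transcripts the fold change was 3.18, or 1.67 ± 0.42 (SE) on the log2 scale, with a Benjamini-Hochberg adjusted p of 0.00866. By the same fit 24.0% of tested transcripts were called, in either direction, with an adjusted p no higher than 0.05, and the fold change of Malat1-201 was above that of 81.3% of them.

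The call depended on which libraries were in the fit. It was lost when UD-P19 replicate 1 was left out (adjusted p 0.0534 in edgeR's quasi-likelihood test), UD-P19 replicate 3 (0.0619), P19N replicate 4 (0.103) or P19N replicate 5 (0.0922), with log2 fold changes between 1.24 and 1.34. It was kept without UD-P19 replicate 2 (adjusted p 0.000132), in a fit where 46.6% of 1145 transcripts were called, and without P19N replicate 6 (0.00456). It was also kept under each of the 12 other filters, scalings, tests and count types tried, with log2 fold changes between 1.40 and 1.84. The scaling moves all transcripts together. Over the tested transcripts the log2 fold changes had a median of 0.21 with TMM and of 0.05 with DESeq2 size factors, and relative to these Malat1-201 was higher by 1.45 and 1.43. The calls over all transcripts split into 193 higher and 116 lower with TMM, 178 and 189 with DESeq2 size factors, and 174 and 196 with TMM after Gm42418 was left out.

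**Figure D2:**
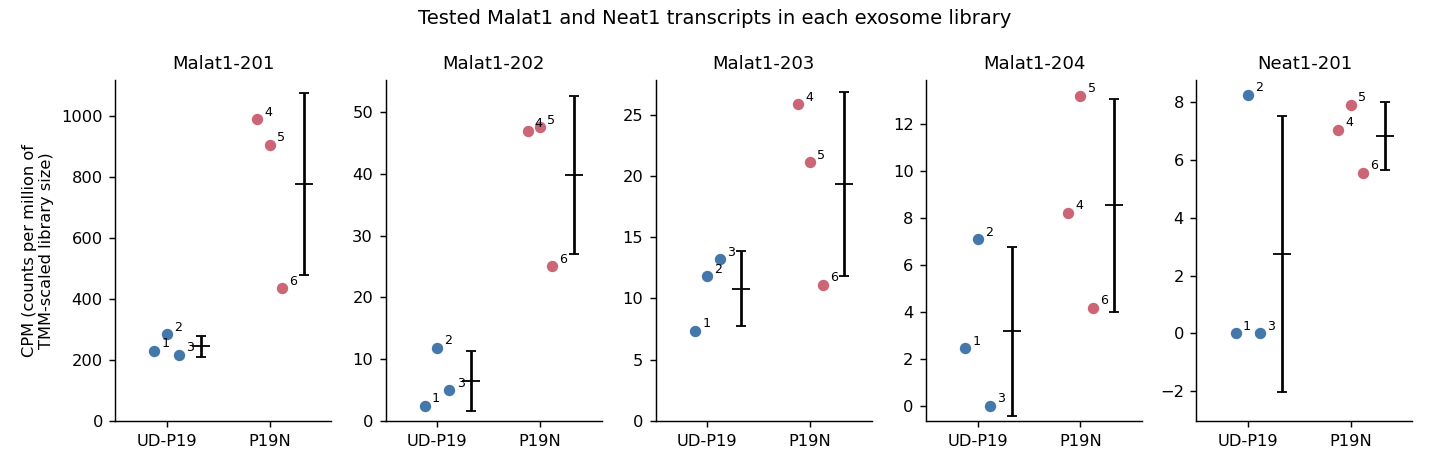
CPM of the 5 tested transcripts in each library (points, numbered by replicate, UD-P19 blue, P19N red), with the mean and SD of each group of 3 (black). Each panel has its own axis, and the groups are apart for Malat1-201 and Malat1-202 and overlap for the other 3.

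The counts unique to Malat1-201 were higher in P19N libraries too. Unique counts, read here as reads that matched 1 listed transcript only, were 88, 212 and 116 in UD-P19 and 762, 624 and 284 in P19N libraries. They made up 90.3% of the counts of Malat1-201. Tested among the 510 transcripts with enough unique counts, Malat1-201 had a log2 fold change of 1.73 and an adjusted p of 0.0129 in the same quasi-likelihood test, where 24.9% of transcripts were called in either direction.

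The spliced forms had few counts and no unique ones. Malat1-202 had 1, 10 and 3 counts in UD-P19 and 40, 36 and 18 counts in P19N libraries, or 6.41 ± 4.85 and 39.8 ± 12.8 CPM (SD, n = 3 each). All P19N libraries were above all UD-P19 libraries. The log2 fold change was 2.49 ± 0.63 (SE), with an adjusted p of 0.00906 in edgeR's quasi-likelihood test. This call was also lost without UD-P19 replicate 1 (adjusted p 0.0508), UD-P19 replicate 3 (0.0535), P19N replicate 4 (0.0578) or P19N replicate 5 (0.0634). With 14 counts in UD-P19 and 94 in P19N libraries, Malat1-202 met the count filter only through P19N, so its call is not given as support. Since its reads could not be told from those of Malat1-201, the call does not name the spliced form either.

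Malat1-203 had 3, 10 and 8 counts in UD-P19 and 22, 16 and 8 counts in P19N libraries, and the groups overlapped. Its log2 fold change was 0.81 ± 0.60 (SE), with an adjusted p of 0.326 in edgeR's quasi-likelihood test. Malat1-204 had 1, 6 and 0 counts in UD-P19 and 7, 10 and 3 in P19N libraries, which overlapped as well. Its log2 fold change was 1.23 ± 0.90 (SE), adjusted p 0.324 in that test. With 7 counts in UD-P19 and 20 in P19N libraries, Malat1-204 met the count filter only through P19N, so nothing is read from this test. It was called only without UD-P19 replicate 2 (log2 fold change 3.04, adjusted p 0.0317 in that test). There it again met the filter only through its P19N counts and 46.6% of 1145 transcripts were called, so nothing is read from this call.

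The counts of the spliced forms tracked the reads of Malat1-201 that were not unique. In UD-P19 replicates 1, 2 and 3 Malat1-201 had 6, 29 and 16 counts that were not unique, beside 5, 26 and 11 counts at the 3 spliced forms together. In P19N replicates 4, 5 and 6 the pairs were 81 beside 69, 63 beside 62, and 29 beside 29. Over all libraries 224 such counts of Malat1-201 stood beside 202 at the spliced forms. How the authors placed reads that match both a spliced form and the full-length one is not given in the sources used here.

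The parts of Malat1-201 were compared per length. The part found in no spliced form had 36.0, 55.9 and 28.3 counts per 1000000 deposited counts and per kb in UD-P19, and 159.7, 153 and 89.7 in P19N libraries. The part shared with a spliced form, taking all counts that were not unique and those of the spliced forms, had 15.1, 48.6 and 22.1 in UD-P19 and 105, 102 and 61.4 in P19N libraries. Both parts were higher in each P19N library than in each UD-P19 library (p = 0.1 for each in an exact two-sided permutation test, the lowest value open to 3 libraries against 3, and 0.171 after adjustment over 12 comparisons of this kind). The ratio of both levels was 2.39, 1.15 and 1.28 in UD-P19 and 1.52, 1.49 and 1.46 in P19N libraries, which overlapped (p = 1, same exact test). Were each read counted at every transcript it matches, the shared level would be lower, and over all libraries the ratio would be 2.78 in place of 1.46.

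The counts of the spliced forms are described by their shares. Exact permutation tests of such shares were among the 12 comparisons mentioned above, but nothing is read from them. The reads of the spliced forms are not unique, and the shares were picked after the counts had been seen. Malat1-202, which covers sequence near the 3′ end, held 14 of the counts of the 3 spliced forms in UD-P19 exosomes, or 33.3%, and 94 in P19N exosomes, or 58.8%. Malat1-203, at the 5′ end, held 21, or 50.0%, and 46, or 28.8%. The ratio of Malat1-202 to Malat1-203 counts was 0.333, 1 and 0.375 in UD-P19 and 1.82, 2.25 and 2.25 in P19N libraries. In UD-P19 replicates 1 and 3 the ratio rests on 1 and 3 counts of Malat1-202.

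Summed over its 4 transcripts, Malat1 had 99, 267 and 143 counts in UD-P19 and 912, 749 and 342 counts in P19N libraries, or 265 ± 44.2 and 845 ± 323 CPM (SD, n = 3 each). The groups did not overlap, as was so for 25.2% of all tested transcripts with P19N higher (p = 0.1 by exact permutation, two-sided, the lowest possible). With the transcripts of each gene summed for all genes, the log2 fold change was 1.66 ± 0.46 (SE), with an adjusted p of 0.00752 in the quasi-likelihood test of edgeR, where 24.9% of genes were called in either direction. Libraries were not left out of this fit. As a share of all deposited counts Malat1 was between 0.0188% and 0.0379% in UD-P19 and between 0.0581% and 0.103% in P19N libraries. By counts Malat1-201 ranked 10, 8 and 10 among the lincRNA transcripts of the UD-P19 libraries and 4, 4 and 6 in the P19N libraries, ranks that mix level with length.

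As a share of summed lincRNA counts, Malat1 differed less between the groups. Without Gm42418, Malat1 made up 1.42%, 2.23% and 1.48% of the lincRNA counts in UD-P19 and 3.50%, 3.68% and 1.65% in P19N libraries, where P19N replicate 6 fell within the range of UD-P19 (exact two-sided permutation test, p = 0.2). Of the 220 tested lincRNA transcripts 13 were called higher in P19N and 31 lower, with a median log2 fold change of -0.17. Over all 1286 tested transcripts 193 were higher and 116 lower, or 24.0% in either direction, with a median of 0.21.

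Neat1 was close to the limit of detection. Neat1-201 had 0, 7 and 0 counts in UD-P19 and 6, 6 and 4 counts in P19N libraries, of which 0, 4 and 0 and 5, 2 and 3 were unique. All P19N libraries had counts, and in UD-P19 the counts lay in replicate 2 alone. The levels were 2.76 ± 4.78 CPM in UD-P19 and 6.84 ± 1.19 CPM in P19N exosomes (SD, n = 3 each). The log2 fold change was 0.98 ± 0.98 (SE), with an adjusted p of 0.475 in edgeR's quasi-likelihood test. No difference was detectable at this depth. Neat1-201 met the count filter only through its P19N counts, so nothing more is read from this test. Without UD-P19 replicate 2 the adjusted p of that test was 0.0119. The transcript again passed the count filter through P19N alone, and 46.6% of the 1145 transcripts in that fit were called, so nothing is read from this call.

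The short polyadenylated form, Neat1-202, had 2 counts in P19N replicate 5 and 1 in P19N replicate 6, and none in the other libraries. Neat1-203 had 2 counts, both in UD-P19 replicate 2, and Neat1-204 had none. None of these counts was unique. Summed over its transcripts, Neat1 had 0, 9 and 0 counts in UD-P19 and 6, 8 and 5 counts in P19N libraries (exact two-sided permutation test on summed CPM, p = 0.4). A count of 0 allows up to 6.60 counts per 1000000 deposited counts in UD-P19 replicate 1 and 3.93 in replicate 3, for counting error only, since reads are not independent molecules. Both listed RNAs of other genes within 100 kb, Gm28006 and Gm27505, are small misc_RNAs inside Neat1, with 0 counts and 1 count.

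**Figure D3:**
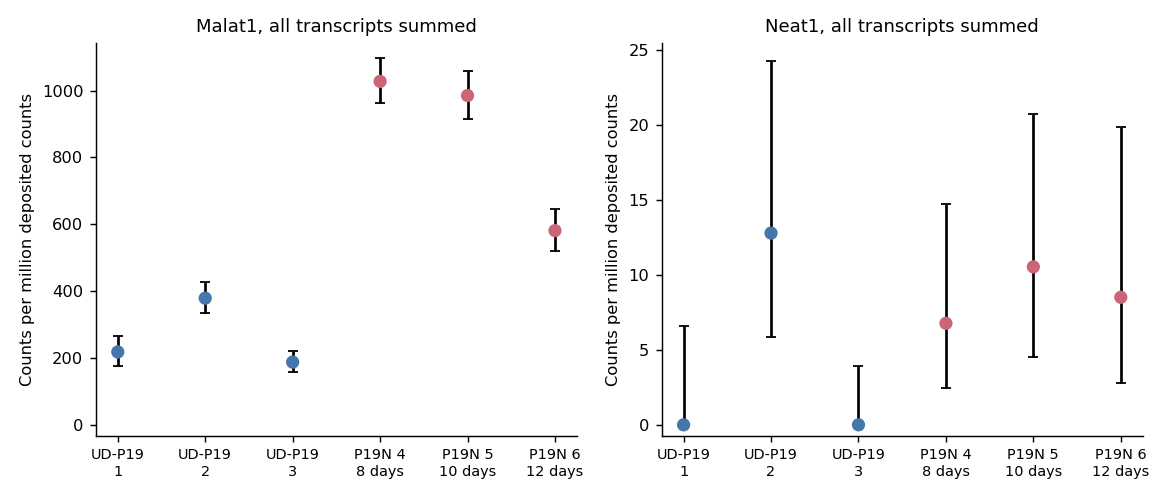
Counts per 1000000 deposited counts of Malat1 (left) and Neat1 (right), all transcripts of a gene summed, in each library, with 95% exact binomial intervals that cover counting error only (for a count of 0 the bar ends at 3 counts). Malat1 lies between 188 and 379 in UD-P19 and between 581 and 1028 in P19N libraries. The Neat1 interval of UD-P19 replicate 2 overlaps that of each P19N library. Bars at a count of 0 end at a set 3 counts and not at an exact binomial limit, so they are not compared with the intervals.

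Per length, Malat1 was far above Neat1. Over all libraries Malat1 had 359.7 counts per kb of its longest transcript and Neat1 had 1.35, a ratio of 267 with a 95% interval from 184 to 402 for counting error. Were the Neat1 reads from a shorter form, this ratio and those below would be lower, which the interval does not cover. In UD-P19 replicate 2, the only UD-P19 library with Neat1 counts, the ratio was 88.2, and in P19N replicates 4, 5 and 6 it was 452, 278 and 203. In UD-P19 replicates 1 and 3 Malat1 was at least 98.2-fold and at least 142-fold higher per kb, against 3 counts of Neat1 per library.

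Over the course of culture Malat1 was lowest in the oldest neurons. At 8, 10 and 12 days it had 1028, 985 and 581 counts per 1000000 deposited counts, with 95% intervals of 962 to 1097, 916 to 1058 and 521 to 646. The first intervals overlap and the last lies below both, which covers counting error only, with 1 library per age and no replicate. On the log2 CPM scale Malat1-201 was lower at 12 than at 8 days by a difference of -1.18, where the median over 1286 tested transcripts was -0.22, and 13.1% of transcripts had a lower value still. The same difference was -0.84 for Malat1-202, whose counts were 4.74%, 5.24% and 5.75% of those of Malat1-201 at 8, 10 and 12 days. Neat1 had 6, 8 and 5 counts, with intervals that overlap.

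Counts that matched without a mismatch, as the column named exact was read, made up 71.7% of the Malat1-201 counts. The share was 61.7%, 70.5% and 71.2% in UD-P19 and 74.4%, 69.9% and 72.8% in P19N libraries, and the groups overlapped (exact two-sided permutation test, p = 0.3). Over all transcripts of the table it was between 44.2% and 60.4% in UD-P19 and between 58.4% and 64.4% in P19N libraries, so that Malat1-201 was above its own library's share in all 6 libraries.

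Other nuclear lncRNAs were set beside Malat1 and Neat1 from a list of 22 genes, of which 21 had transcripts in the table and 10 had a tested one. By the most-counted tested transcript of each, 1 of the 10 was called higher, 1 lower and 8 neither, near the 24.0% called in either direction over all tested transcripts, with a median log2 fold change of -0.10 against 0.21 over all tested transcripts. Snhg14-206, from the imprinted host of snoRNA clusters, was called higher. It had 6, 35 and 12 counts in UD-P19 and 84, 96 and 72 in P19N libraries, and a log2 fold change of 2.05 ± 0.52 (SE) with an adjusted p of 0.00921 in edgeR's quasi-likelihood test. Its call was lost without the same libraries as that of Malat1-201, UD-P19 replicate 1 or 3 or P19N replicate 4 or 5, with log2 fold changes between 1.54 and 1.92 and adjusted p-values of up to 0.0846. It was also lost on unique counts, which were 95 of its 305 counts (log2 fold change 1.76, adjusted p 0.111 in the same test), and with the transcripts of the gene summed (1.09, adjusted p 0.119). Xist-201, the RNA that coats the inactive X chromosome, was called lower (log2 fold change -3.62, adjusted p 0.0483 in that test), but 40 of its 44 counts lay in UD-P19 replicate 2 alone, and without that library it had too few counts to be tested. The call was also lost without P19N replicate 4, 5 or 6 (adjusted p up to 0.134 in the same test). The log2 fold changes lay between -4.54 and -3.35 there. It was lost too with total counts only, TMMwsp or TMM without snRNAs (adjusted p 0.0706, 0.056 and 0.0671 in the same test), and on unique counts (0.0791). The log2 fold changes were then -3.73, -3.80, -3.80 and -4.11, about as large as in the reported fit. As the transcript met the count filter only through UD-P19, this call is not given as support.

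The other 8 did not pass. Meg3-209, from an imprinted locus active in neurons, had 2, 41 and 3 counts in UD-P19 and 31, 24 and 18 in P19N libraries, with a log2 fold change of 0.58 that turned to -0.10 without UD-P19 replicate 1 and -0.15 without UD-P19 replicate 3. Without UD-P19 replicate 2 it was 2.79 (adjusted p 0.000763 in the same test), where it met the count filter only through P19N and 46.6% of transcripts were called, so nothing is read from that call. Kcnq1ot1-201, an imprinted silencing RNA, had 6, 91 and 11 and then 21, 22 and 20 counts, with -0.83, which turned to 0.91 without UD-P19 replicate 2. In both, UD-P19 replicate 2 was the highest of the 6 libraries. The values of Rian-209 and Peg13-201, from imprinted loci too, were -1.13 and -2.61. That of Rian-209 turned to 0.90 without UD-P19 replicate 2, and Peg13-201, with 11 of its 15 counts in that library, was then not tested. Those of Firre-206 and Miat-205 were 0.38 and 0.21, of Dleu2-215 and Tug1-203 0.16 and -0.36, and those of Firre-206, Miat-205 and Dleu2-215 changed sign under at least 1 other setting. Whether Malat1-201 differs from these transcripts in its change was not tested.

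**Figure D4:**
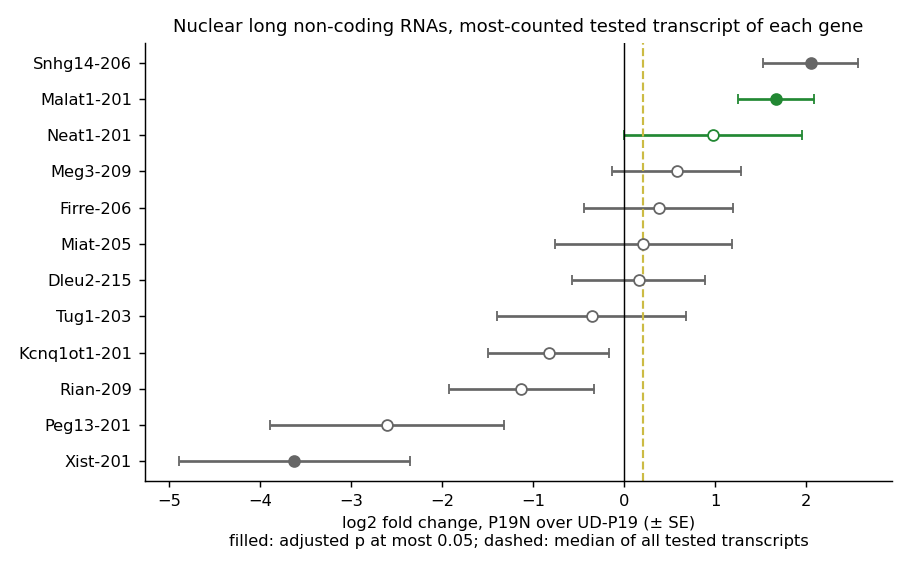
Log2 fold change of P19N over UD-P19 exosomes with its SE for the most-counted tested transcript of Malat1, Neat1 (green) and 10 other nuclear lncRNA genes (grey). Filled points passed the adjusted p of 0.05, and the dashed line marks the median of all tested transcripts, 0.21. Malat1-201 and Snhg14-206 lie at the upper end and Xist-201 at the lower end.

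Short RNAs of the nucleus and nucleolus gave another yardstick, among them the RNA of RNase P, which cuts the end of Malat1 RNA. Of 6 genes, all tested, 2 were called higher and none lower, beside 193 higher and 116 lower of 1286 over all tested transcripts (24.0% in either direction), and their median log2 fold change was 1.12 against 0.21 over all. Rpph1-201, the RNA of RNase P itself, had 415 ± 291 CPM in UD-P19 and 911 ± 237 CPM in P19N exosomes (SD, n = 3 each), with a log2 fold change of 1.14 and an adjusted p of 0.11 in edgeR's quasi-likelihood test. Rmrp-202, of the gene for the related RNA of RNase MRP, rose by 1.75 ± 0.32 (SE) on the log2 scale (adjusted p 0.000991 in that test). It held 50960 of the 51760 counts of the gene and was called with each library left out. Rmrp-201, the transcript annotated as the ribozyme, had 1.19 ± 0.435 (SE) (adjusted p 0.0585 in that test) and was not called. Rnu12-201, an RNA of the minor spliceosome, rose by 1.24 ± 0.38 (SE) (adjusted p 0.0257 in that test), a call lost without UD-P19 replicate 3 or P19N replicate 4 or 5 (adjusted p up to 0.169). The values of Rn7sk-201, Terc-201 and Rnu11-201, which did not pass, were 0.81, 1.10 and 0.57. The share of snRNAs in the library moved with the groups as well, as given above, and its part in the Malat1 difference was not tested.

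By Pearson's r of log2 CPM over the 6 libraries, with a prior count of 2, the lncRNA transcripts most like Malat1-201 among 349 of other genes were C130071C03Rik-205 (r = 0.988), Gm31600-201 (0.973), Gm49753-201 (0.959), Gm48617-201 (0.955) and Gm26917-201 (0.952). Gm31600-201 had 7, 16 and 7 counts in UD-P19 and 71, 45 and 30 in P19N libraries, and it is the only 1 of the 5 that was called higher (log2 fold change 1.94, adjusted p 0.0144 in edgeR's quasi-likelihood test), a call lost without UD-P19 replicate 1 or 3 or P19N replicate 4 or 5. C130071C03Rik-205, a transcript of a neuron marker gene, had 0, 1 and 0 counts in UD-P19 and 9, 5 and 2 in P19N libraries, so that it met the count filter only through P19N. Those most like Neat1-201 among 352 were Meg3-209 (r = 0.989), Gm37245-201 (0.984), Gm12953-201 (0.982), Gm15541-201 (0.970) and C230004F18Rik-210 (0.961). Each of these 5 had in UD-P19 replicate 2 more counts than in the other UD-P19 libraries, as Neat1-201 did. Gm49753-201, Gm48617-201, Gm37245-201, Gm15541-201 and C230004F18Rik-210 also met the count filter only through P19N. The points are the same 6 libraries in 2 groups, so the values describe a shared pattern over these libraries and nothing more.

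**Figure D5:**
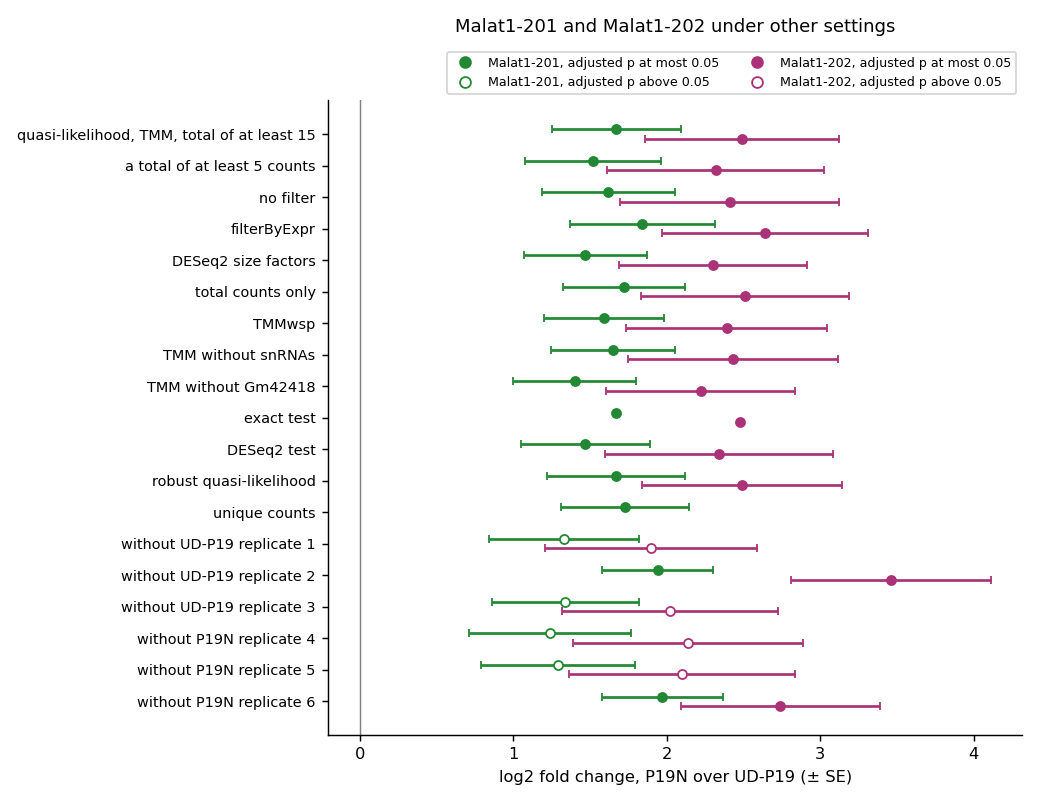
Log2 fold change with its SE (edgeR's exact test gives none) of Malat1-201 (green) and Malat1-202 (purple) under the reported fit and under other filters, scalings, tests and count types, and with each library left out. Filled points have an adjusted p of at most 0.05. All points lie above 0, and the open ones are those without UD-P19 replicate 1 or 3 or without P19N replicate 4 or 5.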

How the data were processed

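The authors trimmed and paired the reads, counted them in CLC Genomics Workbench, with default parameters, against the ncRNA transcripts of GRCm38, and deposited whole-number counts per transcript, unique counts and exact counts, without normalization. How reads matching several transcripts were counted is not given in the sources used here. The deposited group means, fold changes and p-values of the authors' own comparison were not used. Of 5880 transcripts, 5773 were matched by identifier to GENCODE M21 (GRCm38), and 107 were not. Transcripts whose 6 libraries summed to at least 15 counts entered 1 quasi-likelihood fit (F test, edgeR 4.0.16 in R 4.3.3) with TMM scaling and no covariate. P-values were adjusted over all of them by Benjamini-Hochberg, and 0.05 was the limit for a call. The SE was the log2 fold change over the square root of F. Single values were compared by exact two-sided permutation over 20 relabellings. Depth was between 454499 and 887460 counts. Alternatives were other count filters, scalings and tests (edgeR's exact test, DESeq2 1.42.0), unique counts, transcripts summed per gene and each library left out. Unique counts summed per gene were added after the data were seen.

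Named were every Malat1 and Neat1 transcript, members of the nuclear lncRNA and short nuclear RNA lists by their most-counted tested transcript, the 5 lncRNA transcripts most correlated with Malat1-201 and with Neat1-201, and listed genes within 100 kb. The members and lists were chosen with earlier results of these data known. Sequences were read from the GENCODE transcripts, and Python 3.11.15, scipy 1.17.1 and matplotlib 3.10.9 served for the summaries and figures.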

Additional observations from a re-analysis of the deposited data

How the results depend on the processing

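Under the filters, scalings, tests and count types that could be tried, the 5 tested transcripts kept their direction and their side of the threshold. Malat1-202, Malat1-203, Malat1-204 and Neat1-201 had too few unique counts to be tested on them, filterByExpr left out Malat1-204 and Neat1-201, and DESeq2 gave both no adjusted p. With 1 library left out, the log2 fold change was between 1.24 and 1.97 for Malat1-201 (adjusted p between 0.000132 and 0.103, 4 of 6 calls lost), between 1.90 and 3.46 for Malat1-202 (0.00015 to 0.0634, 4 of 6 lost), between 0.34 and 1.09 for Malat1-203, between 0.42 and 3.04 for Malat1-204 and between 0.16 and 5.30 for Neat1-201, the fitted 5.30 resting on UD-P19 libraries at 0 and the prior count. Summed per gene, Malat1 had a log2 fold change of 1.72 on unique counts. The difference in summed CPM, 581 for Malat1 and 4.64 for Neat1, was between 474 and 603 and between 2.65 and 4.34 under other scalings and on unique counts, and between 467 and 765 and between 2.87 and 8.19 with 1 library left out.

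The 116 lower calls over all transcripts became 207 with a filter of 5 counts, 189 with DESeq2 size factors, 196 with TMM without Gm42418 and 203 with DESeq2, where the cause was not tested. On unique counts 73 were higher and 54 lower, and 74 and 52 after these were summed per gene, where fewer could be tested. With 1 library left out there were between 105 and 382 higher, the most without UD-P19 replicate 2, and between 75 and 174 lower. The 1 lower call of the nuclear lncRNA list became 0 with filterByExpr, total counts only, TMMwsp, TMM without snRNAs and both kinds of unique counts, and was between 0 and 1 with 1 library left out. The 1 higher call, Snhg14-206, became 0 on unique counts per transcript, gave way to Rmst when counts or unique counts were summed per gene (adjusted p 0.00767 and 0.037), and was between 0 and 2 with 1 library left out.

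No paired analysis was possible because the groups share no replicate numbers (1 to 3 and 4 to 6). A library with few counts limits what can be seen of Neat1 and of the spliced Malat1 forms.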
